A study of Mus musculus with 24 samples.

Results

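Hippocampal CA1 was compared 72 h and 24 h after pilocarpine-induced status epilepticus (SE), a prolonged seizure state that injures the hippocampus and in many animals precedes epilepsy. The comparison rests on 6 of the 24 RNA-seq libraries of the series, 3 from SE 72 h and 3 from SE 24 h, and on all 18153 genes that passed the filter on low counts, of 18647 in the table. The rule was the time after SE given in the labels, and no measured value was used to choose the libraries. The mice were C57Bl/6N, at least 60 days old. They received 1 mg/kg scopolamine methyl nitrate, which blocks muscarinic receptors outside the brain, and 335 mg/kg pilocarpine, a muscarinic agonist. Diazepam (4 mg/kg) was given 40 min after the onset of SE, and only animals that had developed SE were used. The 9 control libraries (3 each at 12, 36 and 72 h) came from mice handled in the same way, scopolamine methyl nitrate and diazepam included, with saline in place of pilocarpine. There was no control group at 24 h, so levels at both times are set beside the 9 controls together. Tissue was bulk CA1, so fewer cells of a type and less RNA per cell cannot be told apart.

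The times 24 and 72 h lie 2 days apart, so a common hour of injection would give a common clock time of collection under the 12 h light cycle. The hour of injection was not stated in the sources used here, and a shared clock time therefore rests on that assumption. Only 1 other pair of SE times, 12 and 36 h, is a whole number of days apart, and it shares no library with 24 and 72 h.

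During and after SE, neurons first transcribe immediate early genes, which encode transcription factors and synaptic proteins that turn over within hours. Glia and vessels respond with cytokines, chemokines and matrix proteins. Over the following days, microglia multiply and take up debris, and astrocytes, which clear glutamate and potassium from the extracellular space, become hypertrophic.

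Library totals were 9328095, 22347349 and 15194222 counts for SE 24 h replicates 1 to 3, and 15685996, 10088496 and 20278630 for SE 72 h replicates 1 to 3. Pearson's r of log2 CPM was 0.961 to 0.971 between SE 24 h libraries, 0.962 to 0.975 between SE 72 h libraries and 0.917 to 0.957 between the times. The labels number the replicates without naming an animal for each. The p-values given here rest on the spread between libraries within groups, estimated over all 24 libraries and not these 6 alone. Some libraries stood apart. Genes of sensory ganglia, which CA1 should lack, had a summed level of 15.6, 14.7 and 62.3 CPM at 24 h and of 1084, 567 and 26 CPM at 72 h (9.64 to 1985 CPM in controls), with 4 of 11 passing the test as higher. Prph, a neurofilament protein of peripheral neurons, was at 219, 124 and 4.14 CPM at 72 h, and Scn10a, a sodium channel of nociceptors, at 174, 79.5 and 1.61 CPM. Xist, transcribed from the inactive X chromosome, was at 0, 0.0435 and 3.22 CPM at 24 h and 33.9, 14.9 and 1.36 CPM at 72 h, while 4 Y-linked genes were present in all 6 libraries. SE 72 h replicate 1 also held markers of dentate granule cells, with 433 CPM summed over 8 genes against 81.0 to 111 CPM in the other 5 libraries. Prox1, a transcription factor of those cells, was at 134 CPM there and at 11.1 to 22.1 CPM in the others. SE 72 h replicate 3 was thus the library of its group with the lowest level of ganglion markers, and SE 24 h replicate 3 had the highest levels of immediate early genes. Beyond the values given without these libraries or with a score of the ganglion genes in the fit, the part of these markers in the results was not tested. The tissue label was checked against 15 CA1 pyramidal markers, whose summed level was 3188 to 3460 CPM at 24 h, 2898 to 4240 CPM at 72 h and 5449 to 9702 CPM in controls.

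Of the 18153 genes tested, 1975 (10.9%) were differentially expressed (DEGs) between SE 72 h and SE 24 h, with edgeR's quasi-likelihood test at a Benjamini-Hochberg adjusted p of at most 0.05 and a log2 fold change (log2FC) of 1 or more in size. Of these, 1446 (7.97%) were higher and 529 (2.91%) lower at 72 h. With the adjusted p alone, 4702 genes (25.9%) passed. The median log2FC over all genes was 0.02, so the lists below are read against a median close to 0. In 1844 of the 1975 DEGs, all 3 libraries of one time lay on one side of the other 3, as they did in 7334 (40.4%) of all genes. When SE 72 h replicate 3 was the only 72 h library, and was assumed to vary like the other groups, there were 1022 DEGs (871 higher and 151 lower). When SE 24 h replicate 3 and SE 72 h replicate 1 were both left out, there were 1153 (936 higher and 217 lower). A score of the ganglion genes, added once values were known, was also used in place of the fit's factor of unwanted variation. That fit gave 1548 (1161 higher and 387 lower). Decreases thus lost a larger share of their number than increases.

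**Figure D1:**
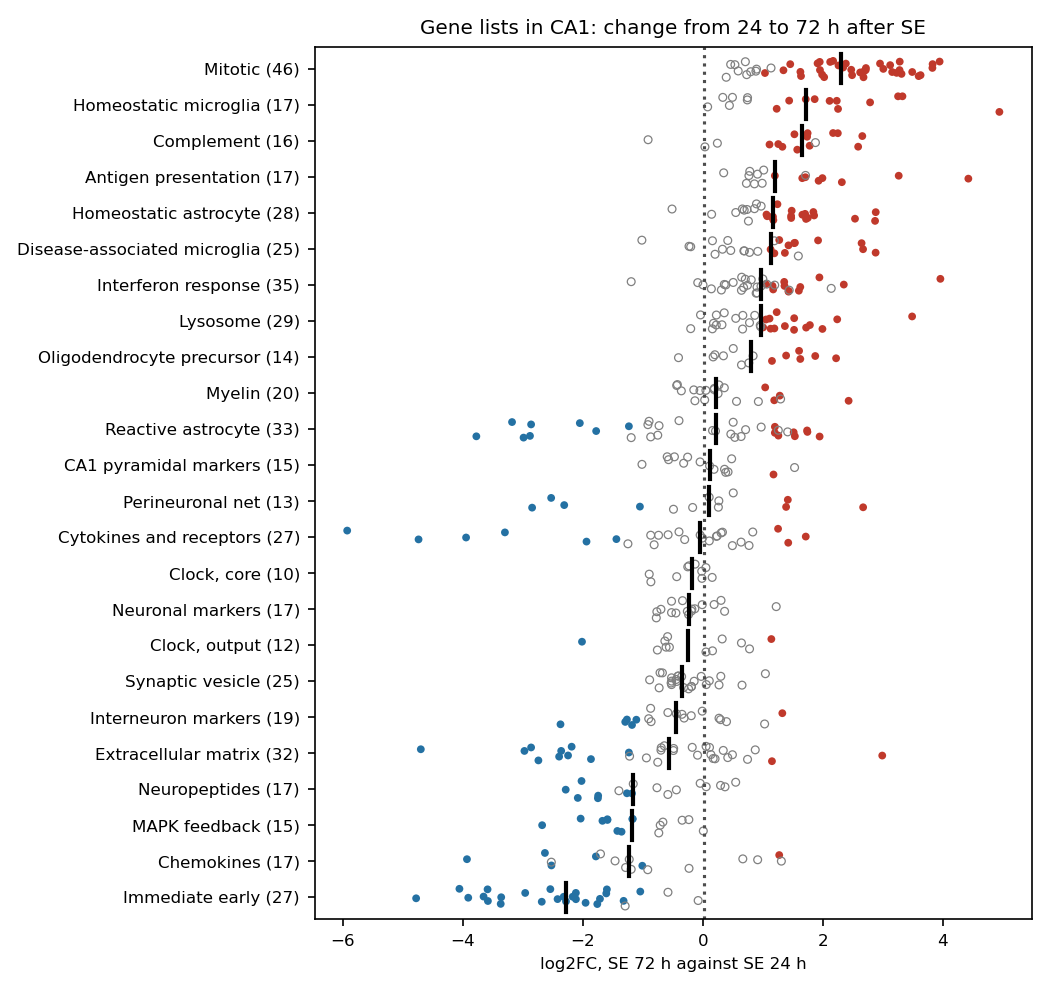
Each point is the log2FC (x axis, SE 72 h against SE 24 h) of 1 gene in the list named on the y axis, with the number of members tested in parentheses. Filled red and blue points passed the test as higher and lower, open points did not, black bars are list medians and the dotted line is the median of all genes tested (0.02). Mitotic genes lie farthest to the right (median 2.30) and immediate early genes farthest to the left (median -2.28).

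Immediate early genes, which neurons transcribe within minutes of strong firing, fell as a group. Of 27 tested, 24 fell, 0 rose and 3 (Egr3, Nr4a2 and Nr4a3) did not pass, with a median log2FC of -2.28 against 0.02 for all genes. Their summed level was 5357, 3421 and 14912 CPM at 24 h and 936, 959 and 2232 CPM at 72 h, beside 1038 to 2149 CPM in the controls. The levels at the 2 times did not overlap, and those at 72 h lay close to the range of controls. Arc (chromosome 15: 74540932-74544419, GRCm39), which encodes a synaptic protein that regulates AMPA receptor traffic, was at 567, 344 and 2082 CPM at 24 h and 40.8, 69.9 and 144 CPM at 72 h. All 3 libraries at 72 h were below all 3 at 24 h (log2FC -3.58 ± 0.56, standard error, adjusted p = 0.00013). Fos, a subunit of AP-1, was at 227, 118 and 822 CPM and then at 28.8, 28.3 and 58.0 CPM (log2FC -3.36 ± 0.63, adjusted p = 0.00071, control median 34.0 CPM). Npas4, a transcription factor induced by calcium entry, had one of the largest decreases, from 158, 49.7 and 830.5 CPM to 9.47, 6.39 and 21.7 CPM (log2FC -4.78 ± 0.90). Here too the groups did not overlap, although SE 24 h replicate 3 was several times above the other libraries of its group.

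Bdnf, Ptgs2, Inhba and Nptx2, which neuronal activity is also known to induce, were among the 24 immediate early genes that fell. Bdnf, the neurotrophin most tied to activity, went from 133, 134 and 494 CPM to 51.2, 28.7 and 76.4 CPM (log2FC -2.28 ± 0.49, adjusted p = 0.0022). Ptgs2, which encodes cyclooxygenase-2, went from 211, 206 and 955 CPM to 28.0, 17.6 and 36.4 CPM (log2FC -4.06 ± 0.68), and Inhba, the activin A subunit, from 436, 245 and 948 CPM to 12.3, 18.7 and 75.6 CPM (log2FC -3.91 ± 0.64). The 72 h libraries of each of these genes were all below the 24 h libraries. Nptx2, a pentraxin that clusters AMPA receptors, remained above its control maximum of 103 CPM in 1 of 3 libraries at 72 h (84.9, 56.8 and 279.8 CPM) after 830.2, 386 and 2199 CPM at 24 h. Of 17 neuropeptide genes, 7 fell, 0 rose and 10 did not pass, with a median log2FC of -1.16. Vgf, a precursor of granule peptides, fell from 1048, 1034 and 1688 CPM to 246, 236 and 671 CPM (log2FC -1.75 ± 0.32), and Scg2, secretogranin II, from 961, 697 and 1910 CPM to 402, 208 and 270 CPM (log2FC -2.02 ± 0.36). Npy did not pass, with a log2FC of -0.44 ± 0.26, and was at 113, 124 and 147 CPM at 72 h beside a control median of 35.7 CPM.

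Feedback inhibitors of MAP kinase signalling behaved likewise in direction. Of 15 such genes, 9 fell, 0 rose and 6 did not pass, with a median of -1.17. Dusp4, a phosphatase of ERK and JNK, fell from 36.5, 51.3 and 157 CPM to 10.9, 9.63 and 18.4 CPM (log2FC -2.68 ± 0.48, adjusted p = 0.00044). The numbers of these calls depended on single libraries. Immediate early genes that fell numbered 17 without SE 24 h replicate 3 and 6 with SE 72 h replicate 3 as the only 72 h library, and MAP kinase feedback genes numbered 1 in the latter fit. In that fit the log2FC of Fos was -2.75 and that of Npas4 -4.00, neither of which passed.

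Of 27 cytokine and receptor genes, 6 (22.2%) fell and 3 (11.1%) rose, against 2.91% and 7.97% of all genes. The median log2FC was -0.04, so the list as a whole lay near the median of all genes. The genes that fell included the IL-6 family members Lif and Il11, which kept their call with each library left out. Lif (chromosome 11: 4207557-4222514), a cytokine that signals to astrocytes through gp130, was at 219, 170 and 234 CPM at 24 h, 6.51, 17.8 and 15.3 CPM at 72 h, and at most 1.73 CPM in controls (log2FC -3.95 ± 0.41, adjusted p = 1.8e-06). Il11 had the largest decrease among the genes chosen by size, from 46.9, 41.1 and 121 CPM to 0.710, 0.572 and 2.19 CPM (log2FC -5.93 ± 0.69, adjusted p = 5.6e-06). The groups did not overlap for either gene, and Lif at 72 h was still above every control library. Il6 was low throughout, with at most 3.08 CPM at 24 h, and was at least 6.50-fold lower at 72 h, where each library held 3 counts or fewer. Its call (adjusted p = 0.026) was lost when SE 24 h replicate 3 or either of replicates 2 and 3 of SE 72 h was left out (adjusted p = 0.17, 0.076 and 0.083). Il1rn, the IL-1 receptor antagonist, fell from 7.75, 5.05 and 20.7 CPM to 1.72, 0.954 and 0.731 CPM (log2FC -3.30 ± 0.52). By contrast Il1b and Tnf did not pass (log2FC -0.30 and -0.74). The 3 that rose were Il18, Tgfbr2 and Csf1r, of which Csf1r, the receptor through which microglia receive survival signals, went from 141, 115 and 131 CPM to 328, 481 and 461 CPM (log2FC 1.72 ± 0.14).

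Among 17 chemokines, 5 (29.4%) fell, 1 (5.88%) rose and 11 did not pass (median log2FC -1.23), against 2.91% and 7.97% of all genes. Ccl2, which draws monocytes, fell from 31.1, 26.5 and 33.6 CPM to 4.50, 6.20 and 4.87 CPM (log2FC -2.52 ± 0.47), and Ccl4 from 28.8, 17.8 and 19.7 CPM to 3.73, 2.77 and 4.09 CPM (log2FC -2.63 ± 0.42). Both stayed above their control maxima of 2.56 and 0.253 CPM in all 3 libraries at 72 h. Ccl7 fell by 3.93 on the log2 scale. Cxcl14, a chemokine already present in controls (56.4 to 90.5 CPM), was the 1 that rose, from 41.9, 39.6 and 29.2 CPM to 88.5, 92.3 and 87.5 CPM (log2FC 1.27 ± 0.14, adjusted p = 3.7e-06). Cxcl14 at 24 h was thus below all controls, and at 72 h around their upper end.

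Cell cycle genes were the list with the largest share of members that rose. Of 46 genes tested, 36 rose, 0 fell and 10 did not pass, with a median log2FC of 2.30. With single libraries left out the number that rose was 34 to 36, and with SE 72 h replicate 3 as the only 72 h library it was 35. Mki67 (chromosome 7: 135291513-135318299), whose protein coats the chromosomes of dividing cells, was at 7.01, 2.66 and 3.78 CPM at 24 h and 59.9, 70.4 and 72.0 CPM at 72 h (log2FC 3.95 ± 0.45, adjusted p = 5.3e-06). Top2a, the topoisomerase that separates sister chromatids, went from 9.88, 5.36 and 4.62 CPM to 56.4, 62.4 and 71.5 CPM (log2FC 3.28 ± 0.43), and Cdk1, the kinase that drives entry into mitosis, from 3.61, 1.79 and 0.631 CPM to 18, 18.3 and 18.6 CPM (log2FC 3.23 ± 0.72, adjusted p = 0.0028). At 72 h these genes varied little between libraries and lay above all 9 controls, whose maxima were 8.10, 3.75 and 1.88 CPM. Ube2c, which supplies ubiquitin to the anaphase promoting complex, rose by 3.83 ± 0.45 in log2FC. Foxm1, the transcription factor that switches on genes of G2 and mitosis, went from 4.14, 2.7 and 3.36 CPM to 20.5, 21.3 and 24.5 CPM (log2FC 2.72 ± 0.22, adjusted p = 1.4e-07).

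By the adjusted p alone 42 of the 46 passed, against 25.9% of all genes, and all 46 log2FCs were above 0. Of the 10 members that did not pass both thresholds, 7 act in G1 or S phase, and the other 3 were Anln, Aurka and Mybl2. Ccne1, Ccne2, E2f1, Pcna, Mcm4, Mcm6 and Mcm7 had log2FCs of 0.39, 0.73, 0.90, 0.54, 0.89, 0.59 and 0.80, whereas Mcm2, Mcm3 and Mcm5, also subunits of the replicative helicase, passed at 1.04, 1.46 and 1.64. Other genes of S phase were among those that rose most, such as Rrm2 and Tk1, which act in nucleotide synthesis (log2FC 3.49 and 3.12), and E2f8, a repressor of the E2F family (log2FC 3.63). The phases were not compared by a test. The cells that expressed these genes cannot be told from bulk counts.

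Promoters of mitotic genes are known to carry a cell cycle homology region (CHR, TTTGAA) close to the start of transcription and CCAAT boxes upstream of it. RefSeq promoter windows (GRCm38.p6, 250 bases before to 50 after each start) were matched for 31 of the 36 mitotic genes that rose, with 33 windows. On either strand, TTTGAA was found in 21 (63.6%) of these windows and in 17.9% of all 32851, and CCAAT in 26 (78.8%) and 37.4%. Both were found in 19 (57.6%) and in 6.95% of all windows. The 250 bases before the start are shown for 3 genes named above, because in each a TTTGAA lies within 30 bases of the start with CCAAT boxes farther upstream. Capitals mark TTTGAA and CCAAT on either strand, a CHR overlaps no CCAAT box, and in Ube2c a pair of CCAAT boxes on opposite strands overlaps. The windows are chr2:164769679-164769928 on the plus strand for Ube2c, chr11:99024190-99024439 on the minus strand for Top2a and chr10:69352913-69353162 on the minus strand for Cdk1, all read 5′ to 3′ along the gene.
Ube2c: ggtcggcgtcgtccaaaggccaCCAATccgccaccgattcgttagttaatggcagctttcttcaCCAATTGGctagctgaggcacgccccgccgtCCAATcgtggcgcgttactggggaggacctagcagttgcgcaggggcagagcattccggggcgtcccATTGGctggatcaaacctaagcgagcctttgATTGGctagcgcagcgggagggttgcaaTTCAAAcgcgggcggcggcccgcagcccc
Top2a: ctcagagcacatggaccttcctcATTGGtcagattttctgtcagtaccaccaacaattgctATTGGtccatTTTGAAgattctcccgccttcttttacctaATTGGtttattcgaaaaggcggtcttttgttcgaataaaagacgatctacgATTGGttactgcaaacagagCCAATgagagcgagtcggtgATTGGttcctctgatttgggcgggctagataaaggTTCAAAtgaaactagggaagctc
Cdk1: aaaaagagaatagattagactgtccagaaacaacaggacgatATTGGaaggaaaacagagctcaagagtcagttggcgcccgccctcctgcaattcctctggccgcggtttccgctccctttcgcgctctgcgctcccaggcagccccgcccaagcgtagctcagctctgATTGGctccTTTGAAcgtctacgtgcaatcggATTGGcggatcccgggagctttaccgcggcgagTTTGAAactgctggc
The nearest CHR began 29, 23 and 15 bases before the start in Ube2c, Top2a and Cdk1, and the nearest CCAAT 57, 58 and 48 bases before it. A match of letters is a description of the window and not a site of binding. For comparison, 19 of the 24 immediate early genes that fell were matched, with 32 windows, of which 4 (12.5%, all of Egr2) held a CArG box and 1 (3.13%) the cyclic AMP response element TGACGTCA, against 1.63% and 1.79% of all windows.

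Microglial genes rose, those of the resting state included. Of 17 homeostatic microglial genes, 11 rose and 0 fell (median log2FC 1.72), and with single libraries left out the number was 11 to 12. P2ry12 (chromosome 3: 59123682-59170429), the purinergic receptor that steers microglial processes, was at 7.54, 6.14 and 6.10 CPM at 24 h and 39.9, 80.7 and 67.9 CPM at 72 h, beside 30.4 to 58.0 CPM in controls (log2FC 3.26 ± 0.25, adjusted p = 5.8e-08). Siglech, a sialic acid binding lectin of microglia, followed the same course, from 1.81, 2.00 and 3.01 CPM to 14.1, 35.2 and 20.3 CPM with a control range of 14 to 22.3 CPM (log2FC 3.33 ± 0.30). Slc2a5, the fructose transporter that among brain cells marks microglia, went from 0, 0.348 and 0.350 CPM to 3.73, 9.35 and 11.4 CPM (log2FC 4.95 ± 0.59). These genes were below all controls at 24 h and, at 72 h, at or above the lower end of the control range. Tmem119 instead went from 26.3, 17.9 and 11.1 CPM, around its control median of 26.5 CPM, to 65.4, 114 and 80.7 CPM, above the control maximum of 30.6 CPM.

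Of 25 general microglial genes, 18 rose and 1, Cd14, fell (median log2FC 1.25). Csf3r, the G-CSF receptor, and Pld4, a lysosomal exonuclease, were outside that list and were named by their size or p. Csf3r went from 4.78, 3.48 and 5.33 CPM to 45.6, 48.9 and 53.8 CPM (log2FC 3.47 ± 0.23, adjusted p = 1.7e-08) and Pld4 from 2.87, 3.48 and 4.90 CPM to 43.8, 78.8 and 68.5 CPM (log2FC 4.08 ± 0.45). Cd14, the co-receptor for bacterial lipopolysaccharide, ran the other way, with 109, 68.5 and 261 CPM at 24 h, 11.6, 8.58 and 11.9 CPM at 72 h and at most 2.59 CPM in controls (log2FC -3.77 ± 0.45, adjusted p = 8e-06). Among 25 genes of the disease-associated microglial state, 11 rose and 0 fell (median 1.13). Gpnmb, a glycoprotein of phagocytes, went from 5.95, 12 and 16 CPM to 92.4, 51.9 and 74.4 CPM (log2FC 2.67 ± 0.31), and Cst7, an inhibitor of cathepsins, from 4.99, 1.57 and 3.36 CPM to 13.8, 25.1 and 21.4 CPM (log2FC 2.65 ± 0.40). Spp1, osteopontin, was already high at 24 h (505, 475 and 683 CPM, control median 5.64 CPM) and was at 797, 511 and 598 CPM at 72 h, with overlapping libraries and a log2FC of 0.21 ± 0.39 (adjusted p = 0.74). The largest increase of the genes chosen by size was that of Cd5l, a macrophage protein that limits apoptosis, with 0.637, 0.479 and 0.280 CPM at 24 h, 10.9, 10.3 and 11.8 CPM at 72 h and 0 in all controls (log2FC 4.56 ± 0.57).

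Complement and lysosomal genes rose with them. Of 16 complement genes, 12 rose and 0 fell (median 1.66), but with SE 72 h replicate 3 as the only 72 h library 6 rose. C1qa, a chain of the recognition molecule C1q, was at 139.5, 109 and 128 CPM and then at 358, 416 and 492 CPM, with a control maximum of 46.6 CPM (log2FC 1.75 ± 0.17, adjusted p = 8.9e-07). C3, the central component, was more variable, with 0.85, 6.53 and 1.68 CPM at 24 h and 32.4, 10.6 and 17.5 CPM at 72 h (log2FC 2.66 ± 0.64, adjusted p = 0.0047). Of 29 lysosomal genes, 14 rose and 0 fell (median 0.96). Ctss, a cathepsin of antigen-presenting cells, rose from 76.9, 62.7 and 76.1 CPM to 256, 298 and 304 CPM (log2FC 2.00 ± 0.14), with one of the smallest adjusted p-values of all genes (1.7e-08). Grn, progranulin, rose by 1.79 ± 0.11, although 33.1% of the gene overlaps another on the opposite strand, so that its counts are uncertain.

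Of 17 genes of antigen presentation, 8 rose and 0 fell (median 1.20). H2-K1, a class I heavy chain that has close paralogs and overlaps a gene on the opposite strand, was at 36.1, 28.6 and 37.4 CPM at 24 h and 124, 155 and 109 CPM at 72 h (log2FC 1.93 ± 0.19, adjusted p = 1.2e-06), and B2m, the light chain, at 123, 80.8 and 107 CPM and then 325, 408 and 282 CPM (log2FC 1.71 ± 0.16). Neither overlapped between the times. The class II chain H2-Aa was at 7.16, 5.25 and 0.633 CPM at 72 h and passed (log2FC 4.43 ± 1.24, adjusted p = 0.013), but did not without SE 72 h replicate 1 (log2FC 3.87). Its level followed the ganglion markers across these 3 libraries. In a fit with a score of the ganglion genes as a factor, the log2FC of H2-Aa was 2.04 and did not pass. Beyond these fits, the part of those markers in the level of H2-Aa was not tested.

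Interferon-response genes were less stable. Of 35 tested, 12 rose and 0 fell (median log2FC 0.97, and 33 of 35 were above 0). The number that rose was 4 to 17 with single libraries left out, 4 with a factor for label numbers (92 to 104, 109 to 122 or 162 to 169, an assumed batch) and 1 with SE 72 h replicate 3 as the only 72 h library. The label numbers were 97, 98 and 99 for SE 24 h and 120, 119 and 104 for SE 72 h replicates 1 to 3. Only SE 72 h replicate 3 shared a range with SE 24 h, so label range and time cannot be fully told apart. The summed level of the 35 interferon-response genes was 760, 317 and 568 CPM at 24 h and 984, 1141 and 679 CPM at 72 h. Controls were at 160 to 261 CPM, and 1 library at 24 h exceeded 1 at 72 h. Ifi27l2a, an interferon-induced mitochondrial protein, was an exception, at 1.27, 0.479 and 0.981 CPM and then 13.8, 18.3 and 9.06 CPM (log2FC 3.96 ± 0.53, adjusted p = 2.6e-05). Cxcl10, an interferon-induced chemokine, had a log2FC of -1.19 ± 0.53 and did not pass (47.0, 6.88 and 19.5 CPM, then 16.2, 9.44 and 7.5 CPM).

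Some markers of infiltrating leukocytes followed the order of the ganglion markers at 72 h. Chil3 and Ccr2, genes of monocytes, passed with log2FCs of 5.12 and 4.13. Their levels at 72 h were 30.1, 3.91 and 0.926 CPM for Chil3 and 6.86, 2.48 and 0.292 CPM for Ccr2, so both were highest in SE 72 h replicate 1 and lowest in replicate 3. Without SE 72 h replicate 1 neither passed (log2FC 3.39 and 2.98). Ms4a4c, another gene of this list that rose, kept its call with each library left out (log2FC 4.17 to 5.86). Its log2FC was 3.99 with SE 72 h replicate 3 as the only 72 h library. Of the 10 leukocyte genes tested, 4 rose and 1 fell (1 and 2 without SE 72 h replicate 1), while their summed level was 373, 408 and 507 CPM at 24 h and 269, 220 and 239 CPM at 72 h, with 27.2 to 108 CPM in controls. Cd44, which astrocytes also express, made up most of that sum, at 327, 367 and 459 CPM and then 140, 152 and 180 CPM, and was the 1 that fell (log2FC -1.23).

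**Figure D2:**
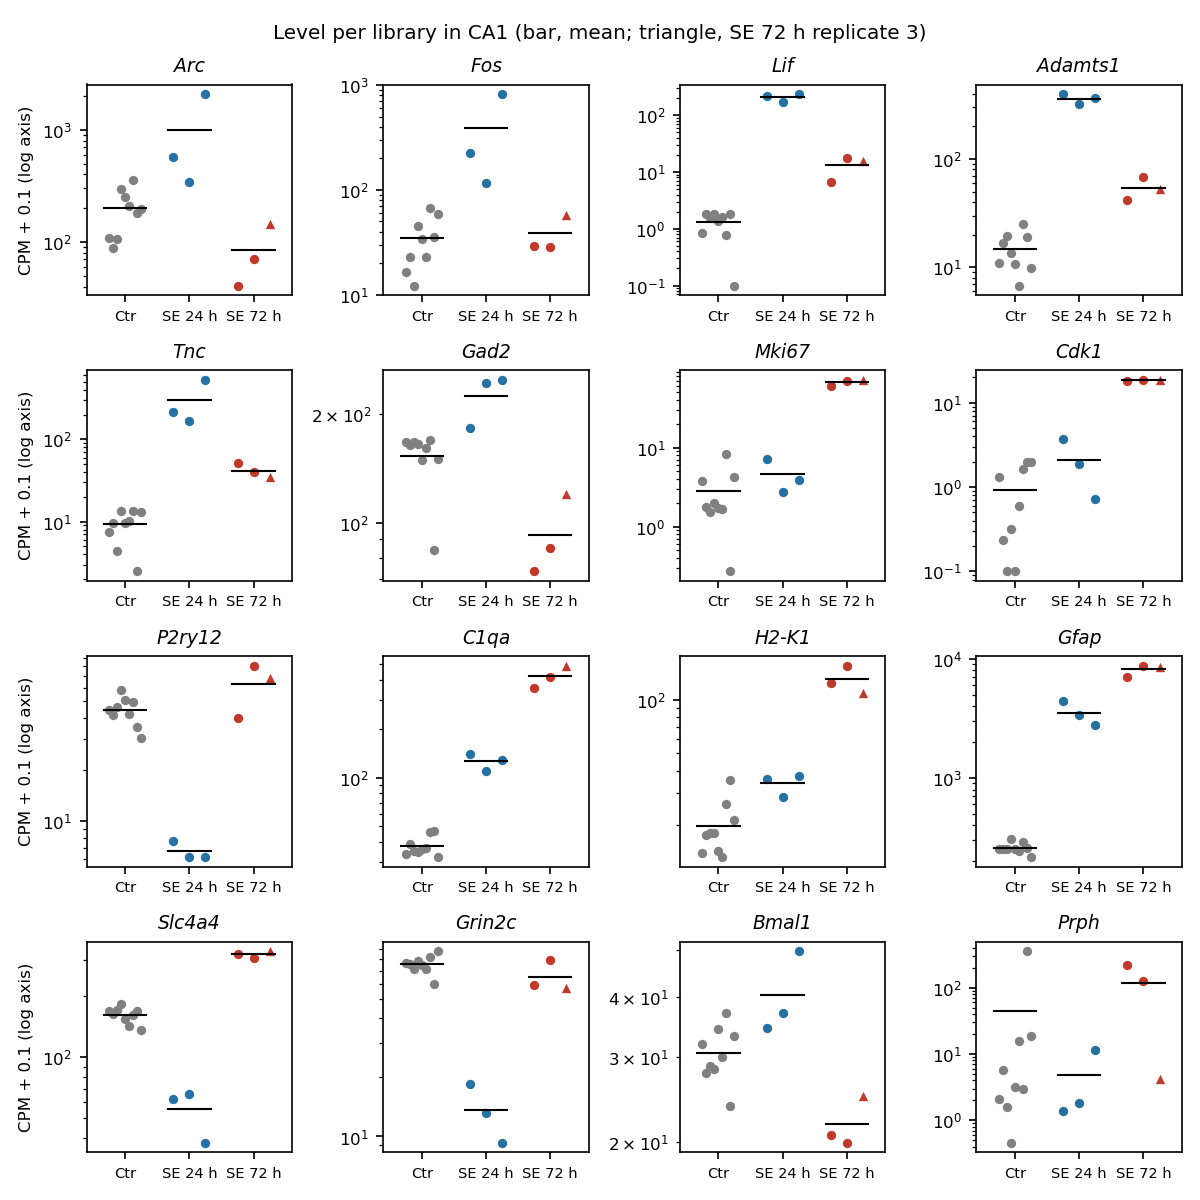
CPM plus 0.1 (y axis, log scale, a different range in each panel) of 16 genes in the 9 control (grey), 3 SE 24 h (blue) and 3 SE 72 h (red) libraries, with bars at the mean and a triangle for SE 72 h replicate 3. The 2 SE groups do not overlap in any panel but that of Prph, where the triangle (4.14 CPM) lies below 1 of the SE 24 h libraries (11.3 CPM).

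Astrocyte genes split into 2 courses. Of 33 genes of reactive astrocytes, 8 rose and 8 fell (24.2% each, against 7.97% and 2.91% of all genes), and the median log2FC was 0.21. Those that rose included the intermediate filaments Gfap and Vim. Gfap (chromosome 11: 102778159-102791738) was at 4411, 3408 and 2809 CPM at 24 h, 7078, 8779 and 8594 CPM at 72 h and 217 to 309 CPM in controls (log2FC 1.20 ± 0.23, adjusted p = 0.0007), and Vim rose from 862, 722 and 979 CPM to 2132, 1879 and 3228 CPM (log2FC 1.54 ± 0.26). Those that fell included Tm4sf1 and Emp1, membrane proteins, and Ptx3, a secreted pentraxin. Tm4sf1 fell from 823, 606 and 903 CPM to 67.8, 107 and 141 CPM (log2FC -2.88 ± 0.28, adjusted p = 7.8e-07), and Emp1 from 181, 157 and 517 CPM to 28.8, 23.8 and 39.5 CPM (log2FC -3.18 ± 0.49). Although lower, both remained above all controls, whose maxima were 12.1 and 17.9 CPM.

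Genes of homeostatic astrocytes rose. Of 28 tested, 18 rose and 0 fell (median log2FC 1.17), with 17 to 20 when single libraries were left out and 18 with SE 72 h replicate 3 as the only 72 h library. Their summed level was 7324, 7598 and 6710 CPM at 24 h, below the 10002 to 12593 CPM of controls, and 15983, 15549 and 15829 CPM at 72 h, above it. Slc4a4 (chromosome 5: 89034345-89387514), the sodium bicarbonate cotransporter that buffers extracellular pH, was at 62.2, 65.8 and 37.8 CPM, then at 322, 308 and 332 CPM, with a control range of 136 to 182 CPM (log2FC 2.54 ± 0.21, adjusted p = 1.5e-07). Slc39a12, a zinc importer, went from 6.37, 9.89 and 2.38 CPM to 53.8, 48.0 and 36.9 CPM (log2FC 2.87 ± 0.35, control median 52.5 CPM). Kcnj10, the potassium channel Kir4.1, was near its control median of 192 CPM at 24 h (226, 264 and 187 CPM) and rose to 536, 868 and 883 CPM (log2FC 1.75 ± 0.21). Of the glutamate transporters, Slc1a3 rose from 556, 437 and 411 CPM to 1092, 930 and 1142 CPM (log2FC 1.17 ± 0.17). Slc1a2 did not reach the fold threshold, at 1275, 1435 and 1221 CPM and then 2170, 2192 and 1988 CPM (log2FC 0.69 ± 0.13, adjusted p = 0.00072), and at 72 h was below all controls (2223 to 3155 CPM). Glul, glutamine synthetase, lay at the threshold (log2FC 1.06 ± 0.17), and its log2FC was 0.94 without SE 24 h replicate 1 and 0.95 without replicate 2. Aqp4, the water channel of endfeet, did not reach the fold threshold and its groups overlapped, with 321, 369 and 499 CPM at 24 h and 628, 846 and 404 CPM at 72 h (log2FC 0.66 ± 0.22).

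Further genes, most of which astrocytes are known to express, stood among those with the largest or most certain increases. Prdx6, a peroxiredoxin with phospholipase activity, had the smallest adjusted p of all genes (1.3e-08) and went from 183, 170 and 132 CPM to 869, 635 and 741 CPM (log2FC 2.21 ± 0.14, control maximum 235 CPM). Slco1c1, a thyroxine carrier, went from 24.6, 23.1 and 14.7 CPM to 90.8, 144 and 145 CPM (log2FC 2.6 ± 0.19). Igfbp2, a binding protein of insulin-like growth factors, went from 18.7, 37.4 and 16.5 CPM to 346, 378 and 310 CPM, against at most 24.6 CPM in controls (log2FC 3.82 ± 0.38, adjusted p = 1e-06). Folh1, the peptidase that cleaves N-acetylaspartylglutamate, went from 1.27, 1.44 and 1.26 CPM to 25.7, 16.3 and 16 CPM (log2FC 3.85 ± 0.38, control maximum 11.4 CPM). Grin2c, an NMDA receptor subunit that in hippocampus is found mainly in astrocytes, was at 18.4, 13 and 9.18 CPM and then 59.2, 79.1 and 56.7 CPM (log2FC 2.28 ± 0.26, control range 59.7 to 87.7 CPM). Grm3, a glutamate receptor shared by astrocytes and neurons, rose from 11.9, 15.2 and 11.2 CPM to 36.5, 69.9 and 96.3 CPM (log2FC 2.36 ± 0.30). These were the 2 of 22 glutamate receptor genes that rose.

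Of 32 extracellular matrix and protease genes, 10 (31.25%) fell, 2 (6.25%) rose and 20 did not pass (median log2FC -0.56). Of all genes, 2.91% fell and 7.97% rose, so the share that rose was not above that of all genes. Tnc, tenascin C, fell from 217, 169 and 528 CPM to 50.8, 39.9 and 34.4 CPM (log2FC -2.86 ± 0.38), and Adamts1, a protease of proteoglycans, from 398, 320 and 363 CPM to 41.5, 68.0 and 52.8 CPM (log2FC -2.74 ± 0.32). Both remained above every control library at 72 h. The 2 that rose were Fn1, fibronectin (log2FC 1.15 ± 0.23), and Mmp2, a gelatinase whose gene also overlaps one on the opposite strand (log2FC 2.99 ± 0.40), which went from 1.49, 0.653 and 1.61 CPM to 7.99, 13.9 and 7.06 CPM and lay within the control range of 1.61 to 11.4 CPM in 2 of 3 libraries at 72 h.

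Perineuronal net genes, which encode the proteoglycan coat around some neurons, moved both ways, with 3 of 13 (23.1%) higher and 4 (30.8%) lower (median 0.11). Of all genes, 7.97% were higher and 2.91% lower. The link protein Hapln1 rose from 6.05, 4.01 and 3.08 CPM to 34.3, 26.3 and 21.7 CPM (log2FC 2.67 ± 0.26, control median 34.5 CPM) and brevican, Bcan, from 50.3, 60.3 and 48.3 CPM to 133, 161 and 131 CPM (log2FC 1.42 ± 0.18), still under its control minimum of 307 CPM. The hyaluronan synthase Has2 fell from 21, 18.2 and 30.0 CPM to 3.67, 3.62 and 2.39 CPM (log2FC -2.84 ± 0.51). Acan, aggrecan, was at 38.9, 19.9 and 146 CPM and then 26.4, 2.48 and 6.24 CPM (log2FC -2.53 ± 0.64), so that its groups overlapped, and it did not pass without SE 24 h replicate 3 (log2FC -1.30).

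Of 19 interneuron markers, 5 fell and 1 rose (median log2FC -0.44), but 0 passed with SE 72 h replicate 3 as the only 72 h library, and 8 fell without that replicate. With all libraries, 26.3% of the list fell and 5.26% rose, against 2.91% and 7.97% of all genes. Gad2, a synthetic enzyme of GABA, was at 182, 243 and 248 CPM at 24 h and 73.4, 84.9 and 120 CPM at 72 h. Its control median was 164 CPM and its log2FC -1.29 ± 0.15 (adjusted p = 7.1e-06), or -0.91 with replicate 3 alone. Its partner Gad1 and the vesicular carrier Slc32a1 had log2FCs of -0.87 and -0.86, under the fold threshold. Sst, somatostatin, was at 343, 239 and 361 CPM and then 85.2, 136 and 201 CPM (log2FC -1.18 ± 0.33, control median 170 CPM). Without SE 72 h replicate 1 its log2FC was -0.91. Reln, a secreted glycoprotein of interneurons, fell from 78.1, 86.4 and 74.3 CPM to 38.3, 33.7 and 38.7 CPM (log2FC -1.11 ± 0.24), and Pvalb did not pass (log2FC 0.40 ± 0.37). Htr3a, the 1 that rose (log2FC 1.33 ± 0.43), was at 30.2, 21.3 and 9.35 CPM at 72 h, in the order of the ganglion markers, and had a log2FC of 0.29 with replicate 3 alone. The 17 general neuronal genes summed to 11950, 13002 and 15086 CPM at 24 h and to 11040, 11082 and 10651 CPM at 72 h, beside 14614 to 17959 CPM in controls. None of them passed by edgeR's quasi-likelihood test, DESeq2 or limma-voom, although 9 had an unadjusted p under 0.05, as did 6906 (38.0%) of all genes. Of 25 synaptic vesicle genes 0 passed both thresholds by any of these tools, with 14 at an unadjusted p under 0.05 and a median log2FC of -0.35. By edgeR's adjusted p alone 10 of the 25 passed, and in 13 all 72 h libraries lay below all 24 h libraries. These genes thus included decreases under the fold threshold.

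Few channel and receptor genes passed. Of 32 potassium channel genes, 2 (6.25%) fell, against 2.91% of all genes, namely Kcna4 (log2FC -1.68 ± 0.37) and Kcnmb4 (log2FC -1.67 ± 0.39). Without SE 24 h replicate 3 Kcna4 had a log2FC of -0.82 and did not pass, and neither passed with SE 72 h replicate 3 as the only 72 h library. Of 26 sodium, calcium and HCN channel genes, 2 (7.69%) fell, Hcn4 and Cacna1i, with log2FCs of -1.19 and -1.07. With SE 24 h replicate 3 left out 1 fell, and 0 fell when SE 72 h replicate 1 was left out or SE 72 h replicate 3 stood alone. Omitting SE 72 h replicate 2 also ended the call of Hcn4, and omitting SE 24 h replicate 2 that of Cacna1i. Of 22 glutamate receptor genes 2 (9.09%) rose and 1 (4.55%) fell, against 7.97% and 2.91% of all genes. The 2 that rose, Grin2c, an NMDA receptor subunit, and Grm3, a metabotropic receptor (log2FC 2.28 and 2.36), passed with each library left out, whereas Grm8, another metabotropic receptor (log2FC -1.28 ± 0.39), did not pass when either SE 24 h replicate 3 or SE 72 h replicate 1 was omitted. Of 12 GABA-A receptor subunits 1 (8.33%) rose, a share close to the 7.97% of all genes. It was Gabrg1, from 7.11, 15.6 and 8.97 CPM to 26.2, 26.7 and 20.3 CPM (log2FC 1.18 ± 0.29, control median 32.7 CPM). It did not pass without SE 24 h replicate 1 (log2FC 0.97).

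Clock genes were examined because both times may share an hour of the day. None of 10 core clock genes passed both thresholds by edgeR's quasi-likelihood test, DESeq2 or limma-voom, while 4 had an unadjusted p under 0.05, close to the 38.0% of all genes. Bmal1, the activator that pairs with Clock, was nevertheless lower in all 3 libraries at 72 h (20.6, 19.8 and 24.8 CPM) than at 24 h (34.3, 36.8 and 49.5 CPM), with a log2FC of -0.89 ± 0.19 and an adjusted p of 0.0017. Its repressor Cry1 was at 20.0, 17.8 and 23.1 CPM and then 11.4, 11.4 and 10.6 CPM (log2FC -0.86 ± 0.23, adjusted p = 0.0092). Both groups were separate for each gene, with control medians of 29.9 and 13.2 CPM between or near them. Of 12 clock output genes, 1 rose and 1 fell (8.33% each, against 7.97% and 2.91% of all genes). The 1 that rose, Per3, is a Period gene that was counted here with the output genes and not with the core genes. Per3 rose from 18.9, 21.4 and 14.8 CPM to 44.4, 43.1 and 34.6 CPM (log2FC 1.14 ± 0.19, control median 61.9 CPM), and Nfil3 fell from 23, 23.6 and 83.5 CPM to 9.53, 9.92 and 12.4 CPM (log2FC -2.01 ± 0.58). Without SE 24 h replicate 3, Nfil3 had a log2FC of -1.12 and did not pass, and without SE 24 h replicate 2 there were 2 output genes that rose. Dbp and Hlf, targets of the Bmal1 and Clock pair, had log2FCs of 0.78 ± 0.31 and 0.05 ± 0.27. Hlf was below its control minimum of 123 CPM in all 6 libraries, at 38.4, 89.1 and 79.0 CPM and then 54.0, 95.8 and 67.4 CPM.

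Against the mean of the control groups, 4377 genes (24.1%) passed at 24 h, 2705 (14.9%) higher and 1672 (9.21%) lower, and 4008 (22.1%) at 72 h, 3106 (17.1%) higher and 902 (4.97%) lower, at a log2FC of 0.66 or more in size. For immediate early genes the median log2FC against the controls was 2.45 at 24 h and 0.21 at 72 h, and for interneuron markers 0.02 and -0.71. For homeostatic astrocyte genes it was -0.83 and 0.62, and for homeostatic microglial genes -0.20 and 1.52. For complement genes it was 1.41 and 3.11, for interferon-response genes 2.08 and 3.31, and for mitotic genes 0.83 and 3.16. These comparisons share libraries with SE 72 h against SE 24 h and are given only side by side.

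**Figure D3:**
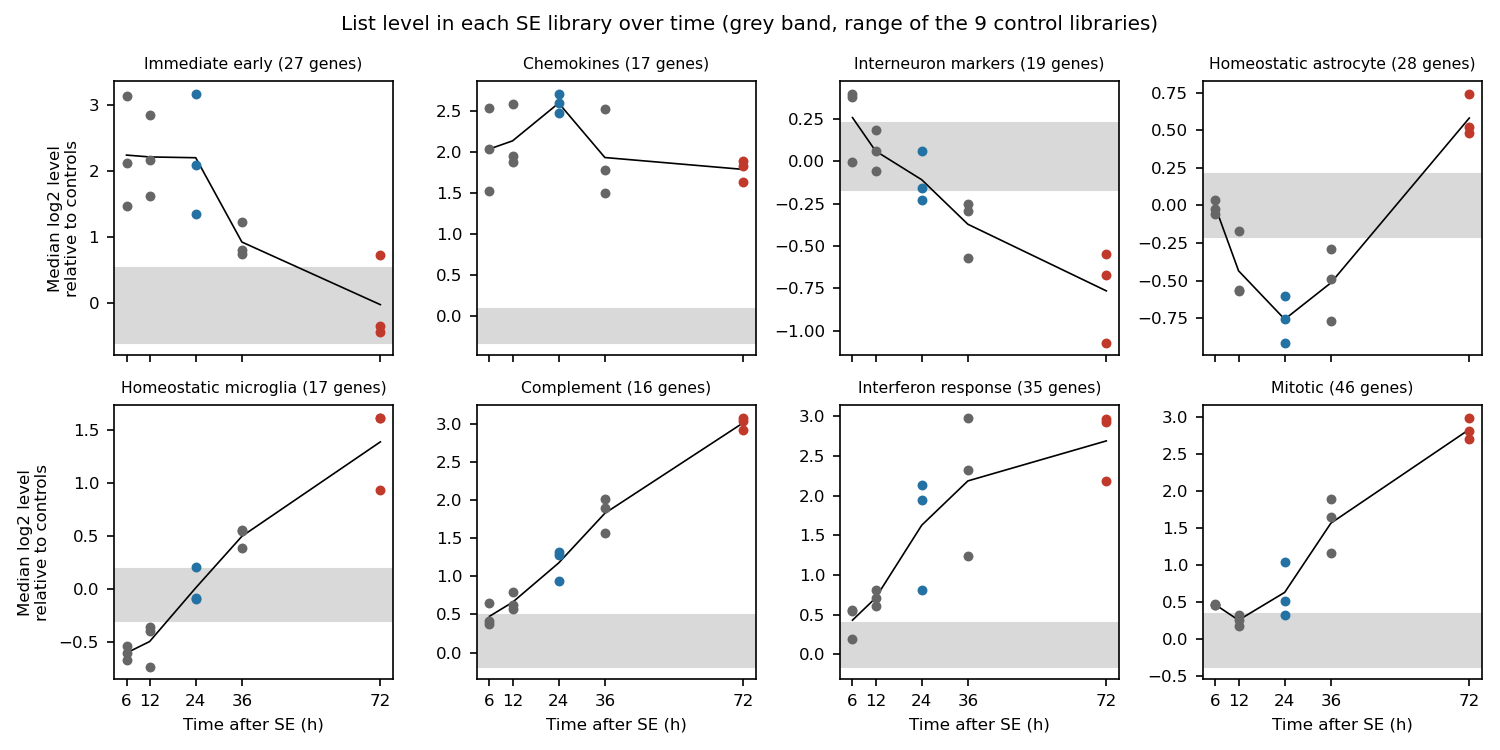
Median log2 level of a list's genes relative to controls (y axis) in each SE library against the time after SE (x axis, h), with a line through the means of the 3 libraries and a grey band for the range of the 9 controls. Libraries at 24 h are blue and those at 72 h red, and homeostatic astrocyte genes lie below the band at 24 h and above it at 72 h.

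SE 36 h against SE 12 h was the other interval of whole days, of 1 day in place of 2 and starting earlier after SE. It gave 1119 DEGs (6.16%), of which 586 (3.23%) were higher and 533 (2.94%) lower at 36 h. Of the 1975 DEGs between 24 and 72 h, 473 (23.9%) were also DEGs here, which is 42.3% of the 1119. Among these 473, 418 had the same direction (311 higher and 107 lower in both) and 55 the opposite. Pearson's r of the log2FCs over the 18153 genes was 0.32, across genes, which are not independent replicates. Ganglion genes were present in this interval too. Their mean log2 CPM was 5.52, 0.31 and 0.16 in SE 12 h replicates 1 to 3, and -0.90, -0.79 and 5.82 in SE 36 h replicates 1 to 3. With the ganglion score in place of the factor of unwanted variation, there were 1015 DEGs between 12 and 36 h.

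Mitotic genes rose in both intervals, 30 of 46 between 12 and 36 h and 36 of 46 between 24 and 72 h. Of 35 interferon-response genes 28 rose over the earlier and 12 over the later interval, and of 27 immediate early genes 12 and 24 fell. The difference between both changes was tested itself, as a contrast of 4 groups, and passed in 827 genes (4.56%), of which 552 (3.04%) had the more positive change between 24 and 72 h and 275 (1.51%) the more negative. Of these 827, 509 were DEGs between 24 and 72 h. With the ganglion score in place of the factor of unwanted variation, 634 genes passed the test of the difference. In the main fit the test passed in 4 of the 27 immediate early genes, all with the more negative change from 24 to 72 h. Of all genes, 1.51% passed in that direction. It passed in 2 of the 35 interferon-response genes, 1 in each direction, against 4.56% of all genes. For the other genes of both lists a difference between the intervals was not shown.

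Of the homeostatic astrocyte genes, 18 of 28 passed the test of the difference, all with the more positive change from 24 to 72 h. Between 12 and 36 h, 5 of them rose and 6 fell. Aldoc, an aldolase of astrocytes, had a log2FC of -1.24 from 12 to 36 h and of 1.25 from 24 to 72 h (difference 2.48 ± 0.26, adjusted p = 1.3e-05), and Slc1a2 one of -1.01 and of 0.69 (difference 1.70 ± 0.18). Bcan, named above, fell by 2.01 on the log2 scale and then rose by 1.42 (difference 3.43 ± 0.26). Of the reactive astrocyte genes, 12 of 33 had the more negative change from 24 to 72 h and 2 the more positive. Tm4sf1 rose by 2.57 from 12 to 36 h and fell by 2.88 from 24 to 72 h (difference -5.45 ± 0.39, adjusted p = 1.8e-07), and Tnc rose by 1.49 and fell by 2.86 (difference -4.35 ± 0.52). Of the homeostatic microglial genes 3 of 17 passed this test, all with the more positive change from 24 to 72 h. Siglech was one, with a log2FC of -1.14 from 12 to 36 h and of 3.33 from 24 to 72 h (difference 4.47 ± 0.43).

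**Figure D4:**
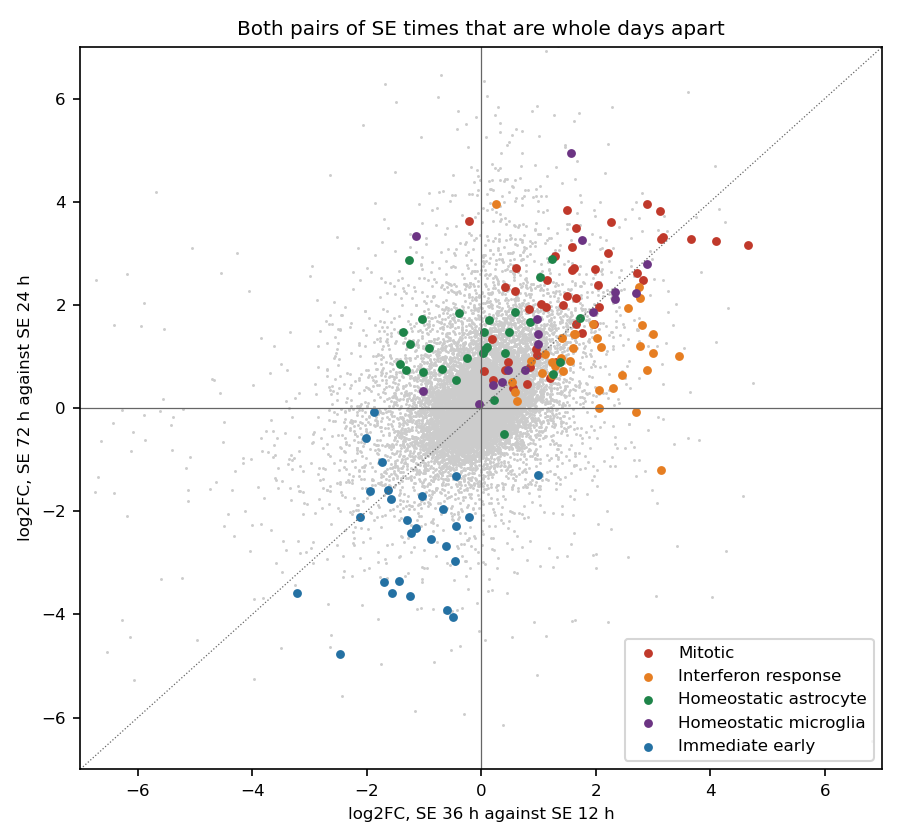
Log2FC of SE 72 h against SE 24 h (y axis) and of SE 36 h against SE 12 h (x axis) for each gene tested (grey), with the members of 5 lists in colour and a dotted line where both are equal. Of the 18153 genes 18 lie outside the axes, and homeostatic astrocyte genes (green) lie mostly above the dotted line.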

How the data were processed

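Hippocampal CA1 gave 24 RNA-seq libraries, 3 per group. The authors trimmed reads with Trim Galore 0.6.6, aligned them to GRCm39 with STAR 2.7.8a, assigned them to GENCODE M26 genes with HTSeq 0.13.5 regardless of strand and merged lanes, and they deposited whole-number counts that were not normalized. Genes overlapping on opposite strands, and paralogs, are therefore uncertain. Names and positions came from GENCODE M39 (18552 genes matched, 95 not).

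Counts were scaled with TMM and fitted in edgeR 4.0.16 (R 4.3.3) to all 24 libraries, after filterByExpr, with 1 term for each group and 1 factor of unwanted variation from the residuals (RUVr). Tests were quasi-likelihood tests with Benjamini-Hochberg adjustment. Standard errors were derived from these tests, as the size of the log2FC over the square root of the F statistic. Groups came from the labels. List levels are medians of log2(CPM + 0.5), relative to controls. A fold against a group with no library over 3 counts is a bound, set at 3 counts per library.

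Named were the 15 largest increases and decreases among DEGs that had a symbol, non-overlapping groups and a mean log2 CPM of 1 or more, the 10 smallest p-values, and list members. Some single genes are not reported here. Members and lists were chosen with earlier results of these data known. Bmal1 and some uncalled members were named after their values were seen. Alternatives were DESeq2 1.42.0, limma-voom (limma 3.58.1), other scaling, filters, thresholds and factors, thinned counts, a replicate block and omitted libraries. The scripts were tested on simulated data.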

Additional observations from a re-analysis of the deposited data

Results flagged for a closer look

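The change from 24 to 72 h differed from that from 12 to 36 h in 827 genes by edgeR's quasi-likelihood test of the contrast of the 4 groups (adjusted p of at most 0.05, difference of at least 1 in log2FC). The intervals differ in length and in start, so time after SE and length of interval cannot be told apart in these differences. The most negative of them were those of Krt6a (-10.47), Krt75 (-6.36), Fbxw23 (-6.10), Lce1g (-5.71) and Il11 (-5.62). Krt6a and Krt75, keratins of stratified epithelia, were at 6.48, 3.92 and 55.4 CPM and at 9.45, 6.45 and 24.6 CPM at 24 h, above all controls (at most 0.138 and 0.329 CPM), and at no more than 0.195 and 1.22 CPM at 72 h. Krt6a was thus highest in SE 24 h replicate 3.

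The most positive differences were those of F2 (9.87), Col10a1 (8.42), BC055402 (8.14), Tbx3os2 (7.97) and H4c1 (7.92). All 5 were at or under 1.6 CPM in each of the 6 libraries at 24 and 72 h, and of them Tbx3os2 alone was a DEG between these times, at least 3.87-fold higher at 72 h.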

How the results depend on the processing

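Of the 1975 DEGs between SE 72 h and SE 24 h, the number was 1022 with SE 72 h replicate 3 as the only 72 h library and 1153 without SE 24 h replicate 3 and SE 72 h replicate 1 (an omission chosen after the data were seen), 3007 at a log2FC of 0.66, 4702 with no fold threshold, and 1413 (without SE 24 h replicate 3) to 2128 (without SE 24 h replicate 2) with single libraries left out. SE 36 h against SE 12 h gave 455 in a fit of the compared groups without the RUVr factor, 1819 at 0.66, 2988 with no fold threshold and 714 (without SE 36 h replicate 1) to 1388 (without SE 12 h replicate 1) with single libraries left out. The difference gave 384, 1316 with no fold threshold, and 592 to 955. SE 24 h against controls gave 2911 at a log2FC of 1, 7504 with no fold threshold and 3491 to 4628, and SE 72 h against controls 6798 and 3554 to 4159. Calca, a peptide of sensory neurons, reversed to -0.46 with SE 72 h replicate 3 alone and to -0.29 with a score of the ganglion genes (added once values were known) replacing the RUVr factor, and with replicate 3 alone Prx reversed to -0.15 and Trpv1 to -1.13. All 3 belong to the ganglion genes.

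Of 304 named or listed DEGs, 304 kept their call with DESeq2, 288 with limma-voom, 282 without the RUVr factor, 258 with the label number factor, 259 with the ganglion score, 186 with SE 72 h replicate 3 alone and 253 to 280 with single libraries left out. Deviations of same-numbered libraries correlated at -0.139, -0.125 and -0.0039, and no library correlated best with its own number. Deviations from a mean of 3 libraries depend on one another, so these values cannot exclude a pairing. The label number factor, largely confounded with time in these 6 libraries, gave 1697 DEGs (1277 higher and 420 lower). The replicate block gave 2005 DEGs (1472 higher and 533 lower) and kept 301 of the 304. Depth limits low genes, and 14188 genes had at least 10 counts in all 6 libraries. Where not stated, the cause of a lost call was not tested.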

Other observations

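Oligodendrocyte precursor genes rose in part, 6 of 14 with 0 lower (median log2FC 0.80, against 0.02 for all genes). Gpr17, a receptor of precursors about to differentiate, was at 10.4, 10.9 and 20.4 CPM at 24 h and at 69.5, 74.3 and 51.3 CPM at 72 h (log2FC 2.22 ± 0.31, adjusted p = 4.8e-05), beside a control median of 86.2 CPM. Olig1, a transcription factor of the lineage, went from 86.3, 75.6 and 69.9 CPM to 193, 316 and 347 CPM, above the control maximum of 99.2 CPM (log2FC 1.88 ± 0.24). Of 20 myelin genes 4 (20%, against 7.97% of all genes) rose and 0 fell (median 0.22). However, 1 rose when replicate 1 or 2 of SE 24 h or replicate 2 of SE 72 h was left out, and 2 when replicate 3 of SE 72 h was. Mbp, a main protein of compact myelin, had a log2FC of 0.03 ± 0.32 and overlapping groups, at 1492, 1092 and 2385 CPM and then 1008, 2237 and 1875 CPM. Cmtm5 rose from 11.7, 5.01 and 6.87 CPM to 38.5, 40.8 and 44.5 CPM, close to its control median of 41 CPM (log2FC 2.43 ± 0.28).

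Among 26 endothelial genes 3 (11.5%) rose and 2 (7.69%) fell, against 7.97% and 2.91% of all genes (median log2FC 0.35). In that list 5 rose without SE 72 h replicate 3 and 1 fell without SE 72 h replicate 1. The carriers of the blood-brain barrier Slco1a4 and Abcb1a were among those that rose. Slco1a4 was at 5.95, 19 and 3.99 CPM at 24 h, 102, 112 and 91.4 CPM at 72 h and 60.1 to 107 CPM in controls (log2FC 3.34 ± 0.41, adjusted p = 1.1e-05), so its level at 24 h was under that of every control. Abcb1a, P-glycoprotein, went from 11.6, 22.6 and 10.4 CPM to 44.9, 39.2 and 43.2 CPM, with a control median of 38.4 CPM (log2FC 1.5 ± 0.24). Flt1, a VEGF receptor, fell from 203, 198 and 215 CPM to 70.9, 95.2 and 110 CPM, with a control median of 80.2 CPM (log2FC -1.15 ± 0.18). Its log2FC was -0.90 with SE 72 h replicate 3 as the only 72 h library, where it did not pass.

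Of 21 genes of the integrated stress response 4 fell and 1 rose, but 1 fell when replicate 3 of SE 24 h was left out. With replicate 1 of SE 72 h left out 2 fell and 2 rose, and 2 rose with its replicate 2 left out. Atf4, its central transcription factor, fell from 194, 224 and 288 CPM to 84, 88.4 and 81.2 CPM, at the control median of 83.1 CPM (log2FC -1.48 ± 0.17). Of 13 glucocorticoid-response genes 3 (23.1%) rose and 1 (7.69%) fell, against 7.97% and 2.91% of all genes (median log2FC -0.19). However, 0 rose and 2 fell with replicate 1 of SE 72 h left out, and 1 rose with replicate 1 or 3 of SE 24 h left out. Of 38 genes of oxidative phosphorylation 1 (2.63%) fell and 0 rose, with a median of -0.11. Of 32 ribosomal protein genes 2 (6.25%) fell and 0 rose, with a median of -0.22, against 2.91% of all genes that fell. Omitting replicate 2 of SE 72 h left none of these 3, and omitting replicate 1 of SE 24 h left 1 ribosomal protein gene that fell. Slc40a1, the iron exporter ferroportin, rose from 2.55, 3.96 and 1.82 CPM to 12.5, 17.2 and 14.3 CPM, around its control median of 13.4 CPM (log2FC 2.37 ± 0.29).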
